A study of Gallus gallus with 10 samples.

Results

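Transferrin (TF, ENSGALG00000006453), hemopexin (HPX, ENSGALG00000022586) and extracellular fatty acid-binding protein (Ex-FABP, ENSGALG00000024011) carry iron, heme and bacterial siderophores outside cells. They are 3 of the 17108 genes counted by RNA-seq in the kidneys of broiler chickens, and they were chosen by identifier. The choice used these same libraries. TF had stood out between 1.0 and 1.2% Ca, HPX between 0.8% Ca and each higher concentration and in its slope on Ca, and Ex-FABP between 0.8 and 1.0% and between 1.0 and 1.2% Ca. The differences in those pairs of diets are therefore given as a description with no test. Tests are reported for the remaining pairs and for how the 3 genes varied together among birds on the same diet. The remaining pairs share birds with the pairs or the slope that chose the genes. For HPX and Ex-FABP, the log2 fold change of the remaining pair also follows from those of the pairs that chose them.

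The study fed broiler chicks diets with 0.8, 1.0 or 1.2% Ca from the first day to 21 days post-hatch, and asked how the kidney transcriptome differs with Ca intake. All diets shared the same level of non-phytate phosphorus and a phytase supplement, and 1.0% Ca was the recommended concentration. One library was made per bird, with 3 birds at 0.8% Ca (replicates 1, 3 and 4), 4 birds at 1.0% Ca and 3 birds at 1.2% Ca. The libraries held between 6176553 and 7857813 counted fragments.

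The RNA came from whole kidney tissue, in which fewer cells of a type and less RNA per cell cannot be told apart. All 10 libraries are labelled kidney, although the series text speaks of 9 kidney profiles. None of the 22 listed kidney markers and none of the 16 hepatocyte markers could be matched by name to a counted gene, so the tissue label was not checked with markers. Over the 12187 genes tested, the lowest correlation between any 2 libraries was 0.931 on the log2 scale. Sequencing lane 1 is listed for all birds at 1.2% Ca and for the birds numbered 1 and 2 at 1.0% Ca, and lane 2 for the other 5 libraries. The diets 0.8 and 1.2% Ca thus share no lane, and for that pair lane and Ca can be separated only through the birds at 1.0% Ca.

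Iron is toxic when free, and vertebrates keep it bound. TF binds ferric iron in plasma and delivers it to cells through the transferrin receptor. In the chicken the same gene also gives ovotransferrin, the iron-binding antimicrobial protein of egg white, and the protein rises in plasma during the acute phase response. HPX is a plasma glycoprotein, made mainly by the liver, that binds heme released from damaged red cells with very high affinity and carries it to be broken down. Ex-FABP is a lipocalin of birds that binds long-chain fatty acids and lysophosphatidic acid, and it captures enterobactin, a siderophore with which enteric bacteria take iron. It is made by hypertrophic cartilage and by leukocytes in inflammation. Kidney tubules take up filtered plasma proteins, transferrin among them, by endocytosis.

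In the Galgal4 assembly, TF lies on the minus strand of chromosome 9 from 4096869 to 4107617, with 17 exon entries and 2377 exonic bases. HPX lies on the plus strand of chromosome 1 from 193596425 to 193599483, with 8 exon entries and 1278 exonic bases. Ex-FABP is the shortest, with 711 exonic bases in 7 exon entries on the minus strand of chromosome 17 from 501842 to 504845. HPX is the only member for which the study designed PCR primers, and the authors used the pair to measure HPX a second time. The paper describes the RNA-seq and PCR patterns of the genes it measured as highly correlated. The pair is shown, 5′ to 3′, and was not placed on a transcript sequence.
HPX forward primer: gccgagggcacagacat
HPX reverse primer: actgcagcggtcaccag
Both primers are 17 bases long with a GC content of 64.7%.

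The 3 genes differed widely in abundance, in the same order in every bird. Compared per length, as FPKM, a fragment count scaled for exonic length and library size, Ex-FABP averaged 828 FPKM ± 637 (SD, n = 10), TF 97.3 ± 30.03 and HPX 22.3 ± 10.8. By this mean Ex-FABP ranked 59 among the 12187 genes tested, TF 701 and HPX 4408. Ex-FABP exceeded TF in FPKM by between 2.28-fold and 15.96-fold within a library, and TF exceeded HPX by between 2.09-fold and 9.70-fold. The TF to HPX ratio was 2.09 to 3.73 at 0.8% Ca, 3.13 to 5.74 at 1.0% Ca and 7.57 to 9.70 at 1.2% Ca. At 1.2% Ca it thus lay above that of every other bird. TF was chosen for a higher and HPX for a lower level at 1.2% Ca, so this order follows in part from the choice.

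The genes also differed in how much birds on the same diet varied. The pooled standard deviation within diets was 0.17 on the log2 scale for TF, 0.40 for HPX and 0.90 for Ex-FABP. Of the 500 tested genes closest to each in level, 67.8% varied less than TF, 89.2% less than HPX and 99.4% less than Ex-FABP. The HPX values rest on 102 to 369 fragments a library, and their counting error alone was 5.21 to 9.90% of the value. The counting error of TF was at most 3.31% and that of Ex-FABP at most 2.90%. These figures cover counting error only.

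**Figure D1:**
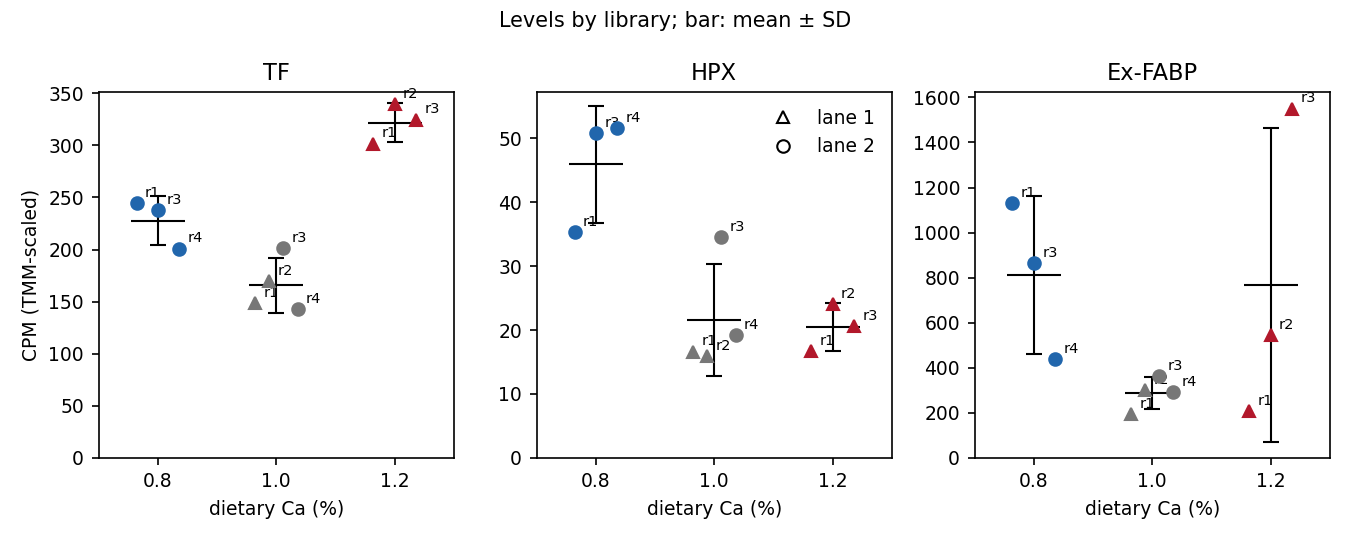
Level (y axis from 0) in CPM, the count scaled to library size, of TF, HPX and Ex-FABP in each library by dietary Ca (x axis), with triangles for lane 1 and circles for lane 2, replicate numbers beside the points, and bars for the mean ± SD. TF lies at 302 to 339.7 CPM in the 3 birds at 1.2% Ca, above every other bird, HPX is highest in the 3 birds at 0.8% Ca, and Ex-FABP spreads from 206 to 1549.8 CPM among the birds at 1.2% Ca. The shares of all genes with these orders over all diets were not counted.

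TF, the plasma iron carrier, was lowest at 1.0% Ca and highest at 1.2% Ca. Its level in CPM, the fragment count scaled to library size, was 245, 238 and 201 in replicates 1, 3 and 4 at 0.8% Ca. At 1.0% Ca it was 149, 169.8, 202 and 143 CPM in replicates 1 to 4, and at 1.2% Ca 302, 339.7 and 325 CPM in replicates 1 to 3. The birds at 1.2% Ca lay above all others, while replicate 3 at 1.0% Ca reached the lowest bird at 0.8% Ca. The share of all genes with the birds at 1.2% Ca above all others was not counted, and this pattern includes the pair that chose TF.

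The means of TF were 228 CPM ± 23.7 (SD, n = 3), 166 ± 26.5 (SD, n = 4) and 322 ± 19.2 (SD, n = 3). Between 1.0 and 1.2% Ca, the pair for which TF was chosen, the log2 fold change was 0.96 (SE 0.12), or 1.94-fold, with no overlap of the groups. Of all tested genes, 2.6% lay higher at 1.2% than at 1.0% Ca with no overlap, which is given beside TF only for reference. On the scale of GAPDH, the reference gene of the study's PCR, the same log2 fold change was 0.72 (SE 0.17), because GAPDH itself differed by 0.24 (SE 0.10) in that pair. Measured against GAPDH, the median of all genes shifted by 0.20 between 0.8 and 1.0% Ca and by -0.23 between 1.0 and 1.2% Ca.

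The 2 other pairs, which share birds with the pair that chose it, were tested for TF. From 0.8 to 1.2% Ca the level was higher in 3 of 3 birds than in any bird at 0.8% Ca, with a log2 fold change of 0.50 (SE 0.13, 95% interval 0.20 to 0.80). This did not pass the quasi-likelihood test of edgeR after adjustment over all genes (adjusted p = 0.423), and neither did any other gene (0% called). Of all tested genes, 6.65% lay higher at 1.2% Ca with no overlap of these groups. From 0.8 to 1.0% Ca the log2 fold change was -0.46 (SE 0.12, 95% interval -0.73 to -0.18) with overlapping groups, and the adjusted p in edgeR was 0.395. The intervals are not adjusted for the number of genes. At an unadjusted p under 0.05 the same test took 1075 genes from 0.8 to 1.2% Ca and 1034 from 0.8 to 1.0% Ca, and after adjustment it called 0 in both. The likelihood ratio test called 19 and 22 genes in these pairs (0.156% and 0.181%), and DESeq2 called 42 and 30. TF was not among them, with an adjusted p of 0.187 and 0.180 by the likelihood ratio test of edgeR and of 0.133 and 0.166 by DESeq2. All birds at 1.0% Ca lay below all other birds in 0.517% of genes, and the order 1.0, 0.8, 1.2% Ca with no overlap anywhere was found in 0.0328%. TF had neither pattern, because replicate 3 at 1.0% Ca lay above the lowest bird at 0.8% Ca. Both patterns contain the difference for which TF was chosen, so these shares are given only for reference. The share of genes that came as near to them was not counted.

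HPX, the heme scavenger, was at 35.3, 50.9 and 51.6 CPM in replicates 1, 3 and 4 at 0.8% Ca. At 1.0% Ca it was at 16.6, 15.9, 34.6 and 19.2 CPM in replicates 1 to 4, and at 1.2% Ca at 16.7, 24.1 and 20.6 CPM in replicates 1 to 3. The birds at 0.8% Ca were the 3 highest, but replicate 3 at 1.0% Ca lay just under the lowest of them. The 95% counting intervals of those libraries overlapped, with 30.8 to 40.3 CPM for replicate 1 at 0.8% Ca and 30.3 to 39.4 CPM for replicate 3 at 1.0% Ca.

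From the lowest to the highest Ca, HPX averaged 45.9 CPM ± 9.23 (SD, n = 3), 21.6 ± 8.80 (SD, n = 4) and 20.5 ± 3.70 (SD, n = 3). As a description of the pairs that chose it, HPX was 2.13-fold lower at 1.0% than at 0.8% Ca (log2 fold change -1.09, SE 0.27) and 2.25-fold lower at 1.2% than at 0.8% Ca (-1.17, SE 0.29). Genes lower with no overlap made up 6.69% and 8.34% of all tested genes in these pairs, and genes higher with no overlap 3.5% and 6.65%. The step from 1.0 to 1.2% Ca was not among the pairs that chose HPX, but its log2 fold change is the difference of theirs. The slope on Ca was fitted over these birds too. The test of this step is therefore not independent of the choice. The log2 fold change of this step was -0.08 (SE 0.27, adjusted p = 0.979 by the quasi-likelihood test of edgeR). Its groups overlapped, and the 95% interval was -0.69 to 0.53. That interval runs from a 0.622-fold to a 1.45-fold level, so a change within that range in either direction was not excluded. In this pair 2.04% of genes were lower and 2.6% higher with no overlap, the quasi-likelihood test called 0 genes (448 at an unadjusted p under 0.05), and the likelihood ratio test and DESeq2 each called 3 genes (0.0246%), without HPX. Leaving out replicate 3 at 1.0% Ca turned this value to 0.25 and made the step from 0.8 to 1.0% Ca -1.41, and leaving out replicate 1 at 1.2% Ca turned it to 0.05.

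Ex-FABP, the siderophore-binding lipocalin, showed the widest range of the 3 genes. It was at 1132, 865 and 438 CPM in replicates 1, 3 and 4 at 0.8% Ca, and at 194, 299.7, 364 and 293 CPM in replicates 1 to 4 at 1.0% Ca. At 1.2% Ca replicates 1 to 3 were at 206, 545 and 1549.8 CPM. The 4 birds at 1.0% Ca spanned a 1.87-fold range, the narrowest of the diets for this gene, and lay below all birds at 0.8% Ca. Of all tested genes, 6.69% were lower at 1.0% than at 0.8% Ca with no overlap. That share is given only for reference, because this pair chose Ex-FABP. The birds at 1.2% Ca ran from near the lowest bird at 1.0% Ca to above every bird at 0.8% Ca.

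The highest library at 1.2% Ca held 7.53 times the Ex-FABP level of the lowest. In that bird, replicate 3, Ex-FABP took 0.154% of all counted fragments and ranked 16 among tested genes by FPKM, whereas in replicate 1 of the same diet it took 0.0205% and ranked 203. The means were 812 CPM ± 350.1 (SD, n = 3), 288 ± 70.1 (SD, n = 4) and 767 ± 699 (SD, n = 3) at 0.8, at 1.0 and at 1.2% Ca.

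In the pairs for which it was chosen, Ex-FABP was 2.82-fold lower at 1.0% than at 0.8% Ca (log2 fold change -1.49, SE 0.55) and 2.66-fold higher at 1.2% than at 1.0% Ca (1.41, SE 0.55). The second value rests on replicate 3 at 1.2% Ca, without which it was 0.38, and without replicate 1 at 1.2% Ca it was 1.86. The pair of 0.8 and 1.2% Ca was tested, but its log2 fold change is the sum of those in the pairs that chose the gene. The test is therefore not independent of the choice. The log2 fold change was -0.08 (SE 0.59, adjusted p = 0.982 by the quasi-likelihood test of edgeR) with a 95% interval of -1.39 to 1.22, which spans 0.383-fold to 2.34-fold. Leaving out replicate 3 at 1.2% Ca moved it to -1.11, and leaving out replicate 1 or 2 at 1.2% Ca or replicate 1 at 0.8% Ca turned it to 0.37, 0.11 and 0.24.

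**Figure D2:**
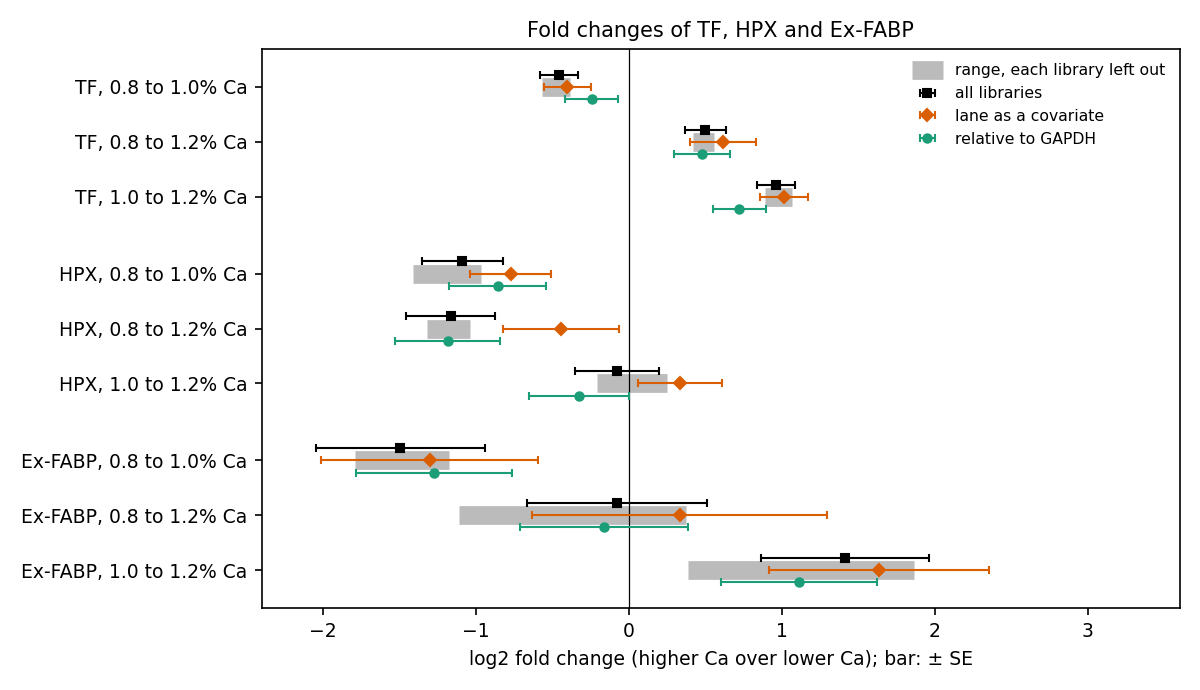
Log2 fold changes (x axis, higher over lower Ca) of each gene in each pair of diets, as squares for the fit of all libraries, diamonds with lane as a covariate and circles relative to GAPDH, with bars of 1 SE, and grey bands for the range when each library was left out in turn. All settings keep TF below 0 from 0.8 to 1.0% Ca and above 0 in the other pairs, while HPX from 1.0 to 1.2% Ca and Ex-FABP from 0.8 to 1.2% Ca fall on both sides of 0.

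HPX differed between the sequencing lanes among the birds at 1.0% Ca, which was not tested. On that same diet, HPX was at 16.6 and 15.9 CPM in the birds of lane 1 and at 34.6 and 19.2 CPM in those of lane 2. The difference was 0.66 on the log2 scale with no overlap. Over so few birds a lane, a lack of overlap carries little weight, and its share over all genes was not counted. Within lane 2, HPX was lower at 1.0% than at 0.8% Ca by a log2 difference of -0.80, over 3 and 2 birds that did not overlap. Within lane 1, HPX was higher at 1.2% than at 1.0% Ca, by 0.31. With lane as a covariate the log2 fold change from 0.8 to 1.2% Ca was -0.44 (SE 0.38) in place of -1.17, and that from 1.0 to 1.2% Ca was 0.33 (SE 0.28).

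TF and Ex-FABP overlapped between the lanes at 1.0% Ca, with log2 differences of 0.10 and 0.44 in favour of lane 2. Within lane 1, TF was 2.02-fold higher at 1.2% than at 1.0% Ca with no overlap (2 and 3 birds). Within lane 2, TF at 1.0% Ca had 143 and 202 CPM against 201 to 245 CPM at 0.8% Ca, a log2 difference of -0.42. Ex-FABP was lower at 1.0% than at 0.8% Ca within lane 2 with no overlap (-1.21), and its groups overlapped within lane 1 (1.21 from 1.0 to 1.2% Ca). With lane as a covariate, TF from 1.0 to 1.2% Ca was at 1.02 (SE 0.16) and Ex-FABP from 0.8 to 1.2% Ca at 0.33 (SE 0.96). These differences within lanes, over 2 or 3 birds a group, are given without a test. The share of all genes that did not overlap in them was not counted.

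The choice of the 3 genes rested on differences between diets, not on how the genes varied together among birds of one diet. Tests of such differences also use the spread within diets, so the choice and this covariation are not fully independent. After the diet means were removed from log2 CPM, TF and Ex-FABP had a Pearson r of 0.50 over 10 libraries (exact permutation of birds within diets, two-sided p = 0.0475, adjusted over the 3 pairs of genes 0.142) and a Spearman rho of 0.58 (exact permutation p = 0.0810, adjusted 0.243). Without replicates 3 and 4 at 1.0% Ca, the birds farthest from their diet mean in TF, r was 0.64 (exact permutation p = 0.0694, adjusted 0.208). Without replicate 2 at 1.2% and replicate 4 at 1.0% Ca, the birds farthest from the median of TF before diet means were removed, it was 0.61 with an exact permutation p of 0.0139, the smallest that the 72 rearrangements can give (adjusted 0.0417). Relative to GAPDH r was 0.34 with an adjusted exact permutation p of 0.552.

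TF and HPX had an r of 0.51 (exact permutation p = 0.285, adjusted 0.427) and a rho of 0.22 (exact permutation p = 0.620, adjusted 0.931). Without replicates 3 and 4 at 1.0% Ca, r turned to -0.14, so the value rests on those birds, of which replicate 3 was high in both genes. HPX and Ex-FABP had an r of 0.20 (exact permutation p = 0.516, adjusted 0.516) and a rho of 0.01 (exact permutation p = 1, adjusted 1). Without replicates 2 and 3 at 1.0% Ca, the birds farthest from their diet mean in HPX, that r was 0.11. No pair passed after adjustment with all libraries. The test can give a p of 0.00116 at the lowest.

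**Figure D3:**
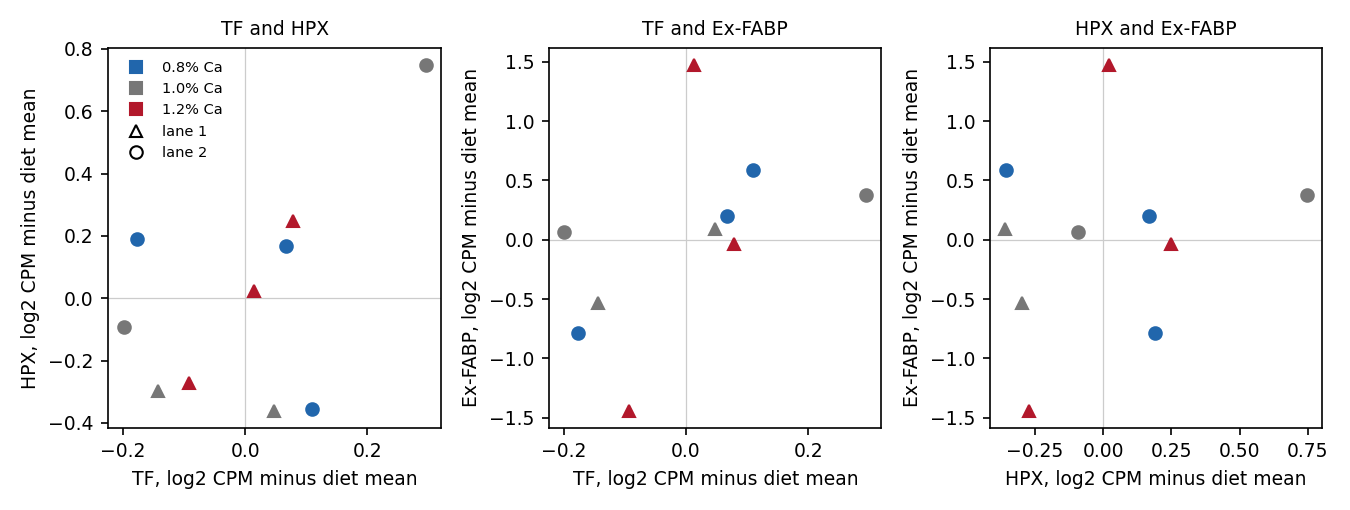
Each pair of genes as log2 CPM minus the mean of the diet (both axes), 1 point per library, coloured by diet, with triangles for lane 1 and circles for lane 2. In the plot of TF and HPX the bird farthest to the upper right is replicate 3 at 1.0% Ca, and in the plots with Ex-FABP the highest and the lowest points are both birds at 1.2% Ca.

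The genes on each side of the members along the chromosome were described next, since reads of a gene and of an overlapping or antisense neighbour could not be separated in these counts. No member overlapped its neighbours. HPX is 607 bases from ENSGALG00000003422 and 1442 bases from ENSGALG00000029159, both on its strand. From the lowest to the highest Ca, ENSGALG00000003422 averaged 98.5 CPM ± 6.59 (SD, n = 3), 71.1 ± 3.39 (SD, n = 4) and 70.5 ± 5.81 (SD, n = 3), and its groups did not overlap from 0.8% Ca to either higher concentration. Genes lower with no overlap made up 6.69% and 8.34% of all tested genes in these pairs. The log2 fold changes of ENSGALG00000003422 were -0.47 (SE 0.09, adjusted p = 0.251) and -0.48 (SE 0.09, adjusted p = 0.279) in edgeR. The second gene downstream, ENSGALG00000026910, was at 34.9 CPM ± 5.08 (SD, n = 3), 21.5 ± 2.29 (SD, n = 4) and 21.9 ± 3.62 (SD, n = 3), and it correlated with HPX over the 10 libraries at r = 0.82.

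All 5 tested neighbours of HPX were lower at 1.0% than at 0.8% Ca and at 1.2% than at 0.8% Ca, with medians of -0.46 and -0.33 on the log2 scale, and 0 of 5 passed the test. Over all tested genes the medians were 0.01 in both pairs, and 47.6% and 48.3% had a lower value. Over the 40 tested genes nearest to HPX, a window set after the nearest genes had been seen, 62.5% were lower in each of these pairs.

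No tested neighbour of TF had its lowest mean at 1.0% Ca, and the correlations with TF ran from -0.33 to 0.27. ENSGALG00000006488 and ENSGALG00000006426 were higher at 1.2% than at 0.8% Ca with no overlap, as TF was. Their log2 fold changes were 0.22 (SE 0.09, adjusted p = 0.513) and 0.27 (SE 0.11, adjusted p = 0.540) in edgeR. Of all tested genes, 6.65% lay higher with no overlap in that pair. The other tested neighbours were lower in that pair, with overlapping groups. SLCO2A1, a prostaglandin transporter 8509 bases away on the other strand, was at 155 CPM ± 29.8 (SD, n = 3), 124 ± 20.7 (SD, n = 4) and 102 ± 30.5 (SD, n = 3) at 0.8, at 1.0 and at 1.2% Ca. Its log2 fold change from 0.8 to 1.2% Ca was -0.61 (SE 0.22, adjusted p = 0.471 in edgeR), opposite in sign to that of TF. The gene next to TF on its other side had 0 counts in all 10 libraries.

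Of the 6 genes nearest to Ex-FABP, 3 had too few counts to test. The other 3 were all lower at 1.0% and at 1.2% than at 0.8% Ca, with medians of -0.53 and -0.72 on the log2 scale, and none passed the test. Over the 36 tested genes nearest to Ex-FABP 77.8% and 66.7% were lower in these pairs, and over the 40 nearest to TF 50% and 60%. The closest tested one is PTGDS, the lipocalin-type prostaglandin D synthase, 4189 bases away on the same strand. PTGDS was at 120.3, 94.6 and 27.6 CPM in replicates 1, 3 and 4 at 0.8% Ca, which is the order that Ex-FABP took in those birds. At 1.0% Ca it was at 38.0, 56.4, 15.9 and 35.4 CPM in replicates 1 to 4, where replicate 3, the highest in Ex-FABP, was the lowest. At 1.2% Ca replicates 1 to 3 were at 29.4, 20.1 and 79.4 CPM, and the highest bird was that with most Ex-FABP. PTGDS overlapped in every pair of diets, with a log2 fold change from 0.8 to 1.0% Ca of -1.15 (SE 0.57, adjusted p = 0.607 in edgeR), and it correlated with Ex-FABP at r = 0.62.

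**Figure D4:**
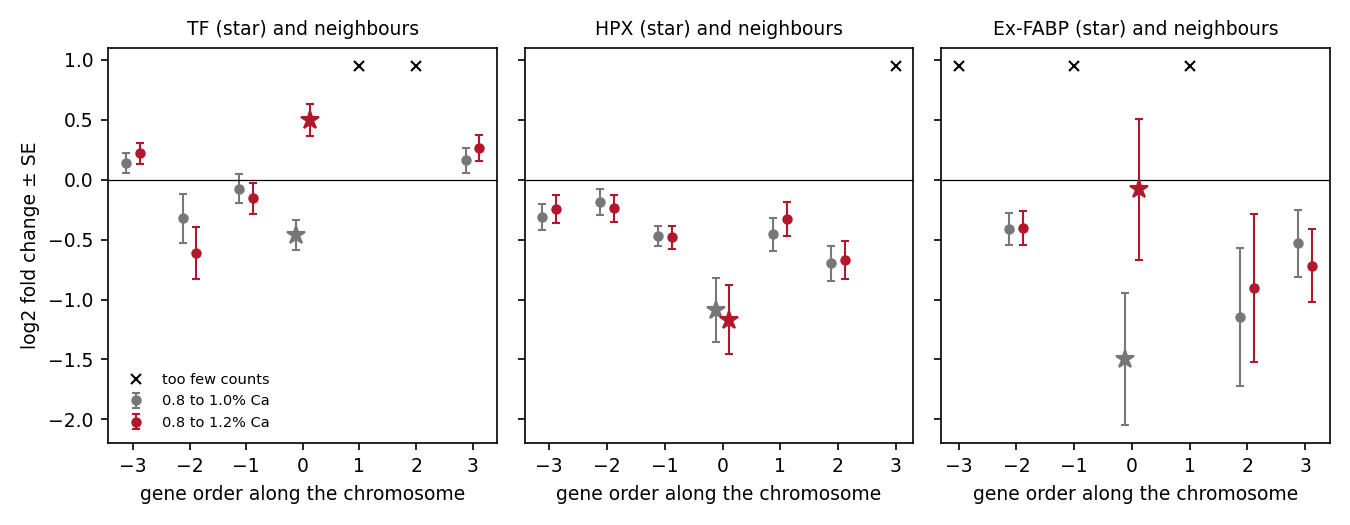
Log2 fold changes ± SE (y axis) of each member (star, place 0) and of the 3 counted genes on each side in order along the chromosome (x axis), in grey from 0.8 to 1.0% Ca and in red from 0.8 to 1.2% Ca, with a cross for genes with too few counts. All 5 tested neighbours of HPX and all 3 of Ex-FABP lie below 0 in both pairs, and those of TF lie on both sides.

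Few other genes of iron and heme handling could be followed, because the files give identifiers and only 157 of the 17108 genes could be paired with a name. Apart from GAPDH those names come from the study's own lists of genes that differed in these samples, so the genes below are not independent evidence of a direction. Of the 15 listed iron carriers and transferrin receptors only TF could be found by name, and of 18 heme binding and breakdown genes only HPX. None of the 16 iron storage and sensing genes could be found. Of 15 heme synthesis genes only TSPO2, an erythroid translocator protein gene, was found. TSPO2 was at 6.12 to 13.5 CPM at 0.8% Ca, 11.02 to 17.9 at 1.0% Ca and 13.4 to 41.3 at 1.2% Ca, overlapping in every pair (log2 fold change from 0.8 to 1.2% Ca 1.36, SE 0.44, adjusted p = 0.463 in edgeR). It was also the only one found of 15 erythroid markers. Of 12 lipocalins and siderophore binders, PTGDS was found beside Ex-FABP, and of 11 vitamin and mineral carriers of plasma none was found.

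The 3 members are also acute phase proteins, and of 25 such genes on the list 3 more were found. LECT2, a secreted leukocyte chemotactic protein, was at 61.6 to 138 CPM at 0.8% Ca, 81.8 to 190.1 at 1.0% Ca and 178 to 464 at 1.2% Ca (log2 fold change from 0.8 to 1.2% Ca 1.45, SE 0.42, adjusted p = 0.463 in edgeR). C3d, named for a fragment of complement C3, was at 56.7 to 126 CPM, 30.8 to 51.5 CPM and 43.8 to 81.4 CPM at 0.8, at 1.0 and at 1.2% Ca, and like Ex-FABP it was lowest at 1.0% Ca with no overlap with 0.8% Ca. In that pair 6.69% of all tested genes were lower with no overlap. The complement protease C1S was at 36.9 to 79.1, 61.5 to 98.3 and 56.6 to 148 CPM. None of these 3 genes passed the test in any pair. Their median log2 fold change was 0.81 from 0.8 to 1.2% Ca, beside 0.01 over all genes. All genes are not a like baseline, because these 3 have names only through the study's lists of genes that differed.

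Over the 10 libraries, with diet means left in, heterophil markers correlated with TF and macrophage markers with both Ex-FABP and TF. Differences between diets enter these correlations. Such differences chose the members, and the markers have names through the study's lists of genes that differed. The part of leukocytes in the results was not tested. Some heterophil genes are listed under several symbols. Of the 20 symbols for this avian counterpart of neutrophils, 3 were found, the defensins GAL1 and GAL2 and LECT2. Their summed level was 88.9 to 209 CPM at 0.8% Ca, 123 to 289 CPM at 1.0% Ca and 276 to 666 CPM at 1.2% Ca, so its mean was highest at 1.2% Ca as with TF, but the groups at 1.0 and 1.2% Ca overlapped. GAL1 correlated with TF at r = 0.68, with HPX at -0.37 and with Ex-FABP at 0.16. GAL2 and LECT2 correlated with TF at 0.59 and 0.62, with HPX at -0.51 and -0.49 and with Ex-FABP at 0.07 and 0.03.

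Of 21 macrophage and monocyte marker symbols, some naming the same gene, 9 were found (SPI1, LY86, TLR7, CD180, MYO1F, DOCK2, Nox2, GILT and DCSTAMP). None was at 0 in any library. DOCK2 and MYO1F are genes of leukocytes more widely, so the list does not set macrophages apart from other leukocytes. All 9 were lower at 1.0% than at 0.8% Ca (median log2 fold change -0.71) and all 9 higher at 1.2% than at 1.0% Ca (0.79), with 0 of 9 past the test in any pair. From 0.8 to 1.2% Ca 7 were higher and 2 lower. Over the 10 libraries their correlations with Ex-FABP ran from 0.44 (DOCK2) to 0.95 (GILT). With TF they ran from 0.49 (MYO1F) to 0.83 (DOCK2), and with HPX from -0.06 (DOCK2) to 0.59 (GILT). With the diet means removed, the r of DOCK2 with TF was 0.12 and that of GILT with Ex-FABP 0.92. No such value is given for the other markers. Over all genes 47.6% were lower from 0.8 to 1.0% Ca and 50.5% from 1.0 to 1.2% Ca. The 9 markers have names because the study listed them as differing in these samples. The shares over all genes are therefore not a like baseline for them.

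On each diet their summed level was highest in the bird with the most Ex-FABP. It was 1003, 709.8 and 708 CPM in replicates 1, 3 and 4 at 0.8% Ca and 501, 1022 and 1338 CPM in replicates 1 to 3 at 1.2% Ca. At 1.0% Ca it was 543, 475, 692 and 498 CPM in replicates 1 to 4, where replicate 3 was again the highest. Replicates 3 and 4 at 0.8% Ca had nearly equal sums, although Ex-FABP was at 865 and 438 CPM there. SPI1, TLR7, MYO1F, Nox2 and DCSTAMP were lower in that replicate 3 than in replicate 4, and the other markers were higher. GILT, a lysosomal thiol reductase of antigen-presenting cells, was at 87.9 to 133 CPM, 51.2 to 74.7 CPM and 47.1 to 137 CPM at 0.8, at 1.0 and at 1.2% Ca, with a log2 fold change from 0.8 to 1.0% Ca of -0.87 (SE 0.30, adjusted p = 0.470 in edgeR). MYO1F, an unconventional myosin of leukocytes, had a log2 fold change of -0.61 (SE 0.29, adjusted p = 0.603 in edgeR) in that pair, and neither gene overlapped there. Genes lower with no overlap made up 6.69% of all tested genes in that pair. This share is not a like baseline for genes named through the study's lists.

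**Figure D5:**
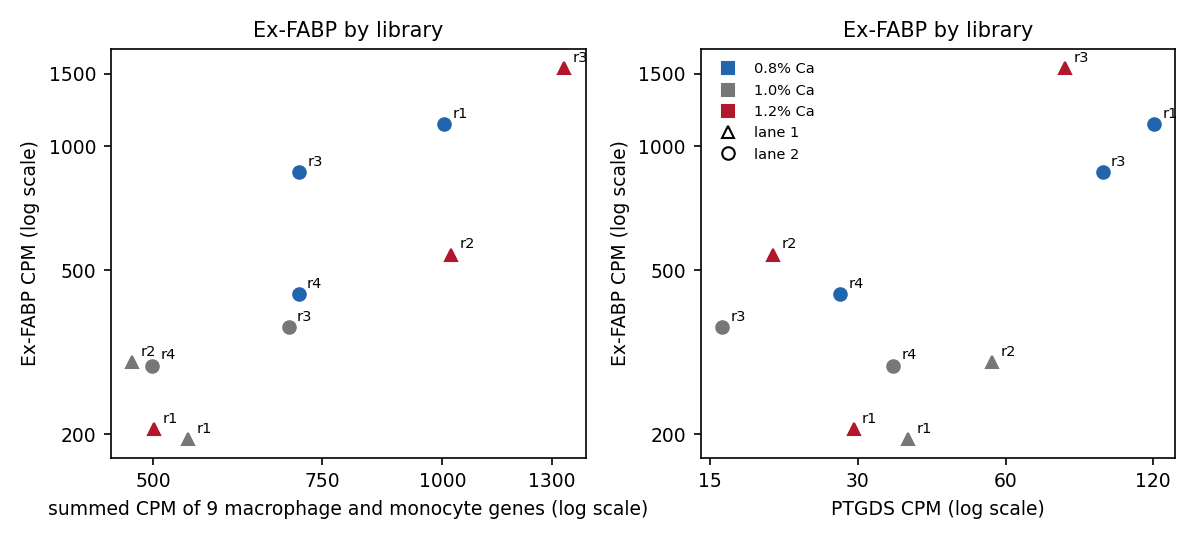
Ex-FABP (y axis, CPM, log scale) against the summed CPM of 9 macrophage and monocyte genes (left) and against PTGDS (right, both x axes on log scales), 1 point per library, coloured by diet, with triangles for lane 1 and circles for lane 2. The library with the highest summed level, 1338 CPM, also has the most Ex-FABP, 1549.8 CPM, while the 4 libraries with summed levels of 475 to 543 CPM hold 194 to 299.7 CPM of Ex-FABP in the reverse order.

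The genes whose levels followed each member most closely were ranked by Pearson r of log2 CPM over the 10 libraries, which share diet, lane and bird, and the values are given as a description. Ex-FABP had 37 of 12186 genes with r above 0.9, TF had 3 and HPX had 0. In the opposite direction, with r below -0.9, Ex-FABP had 2, TF had 1 and HPX had 3, the lowest for HPX at -0.93. The closest to Ex-FABP was ENSGALG00000001712 (r = 0.97), at 129 CPM ± 11.1 (SD, n = 3), 111 ± 3.08 (SD, n = 4) and 131 ± 19.6 (SD, n = 3) at 0.8, at 1.0 and at 1.2% Ca. Among its closest named genes were PRCP, a lysosomal carboxypeptidase that cleaves angiotensin II (r = 0.96), GILT (r = 0.95) and IL2RG, the shared receptor chain of several interleukins (r = 0.93). With the diet means removed these 3 remained at 0.94, 0.92 and 0.91.

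PRCP was at 124 CPM ± 32.7 (SD, n = 3), 79.1 ± 12.8 (SD, n = 4) and 124 ± 46.5 (SD, n = 3) at 0.8, at 1.0 and at 1.2% Ca. IL2RG was at 59.0 ± 12.6, 34.6 ± 2.57 and 47.5 ± 15.2 CPM. For the named genes, the lowest r when any 1 library was left out was 0.94 for PRCP, 0.93 for GILT and 0.92 for IL2RG.

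TF was followed most closely by ENSGALG00000003862 (r = 0.95), which had 57.2 to 59.2 CPM at 0.8% Ca, 52.3 to 56.2 CPM at 1.0% Ca and 59.9 to 62.9 CPM at 1.2% Ca, the same order of diets over a far narrower range. Its closest named genes were DOCK2, a regulator of leukocyte migration (r = 0.83), CCL20, a chemokine (r = 0.80), and IL22RA2, a soluble receptor for interleukin 22 (r = 0.80). DOCK2 was at 135 to 155 CPM at 0.8% Ca, 83.4 to 141 CPM at 1.0% Ca and 179 to 202 CPM at 1.2% Ca, and as with TF the birds at 1.2% Ca lay above all others. The share of all genes with that pattern was not counted. CCL20 was at 16.6 to 27.6, 8.80 to 16.5 and 17.8 to 46.0 CPM. With the diet means removed, the r of DOCK2 with TF was 0.12 and that of CCL20 0.45.

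HPX was followed most closely by ENSGALG00000016513 (r = 0.90), with 60.2 to 65.0 CPM at 0.8% Ca, 55.1 to 57.9 CPM at 1.0% Ca and 54.0 to 56.6 CPM at 1.2% Ca. Its closest named gene was AP3S2, a subunit of the adaptor complex of lysosomal sorting, at rank 149 (r = 0.73), followed by FAM43A (r = 0.69) and PPDPF (r = 0.67). AP3S2 was at 54.6 to 61.3 CPM, 40.2 to 46.8 CPM and 30.6 to 40.8 CPM at 0.8, at 1.0 and at 1.2% Ca. With the diet means removed the r of HPX with these 3 named genes was 0.27, -0.44 and -0.12.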

How the data were processed

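Kidney RNA of 10 broilers was sequenced as paired reads. The authors trimmed reads with Trimmomatic, used HISAT2 2.0.4 for alignment to Galgal4, and deposited whole-number counts of fragments per Ensembl gene made with featureCounts 1.5.0-p3, without normalization and without a strand option. The labels name a stranded kit. The file also gives each gene's exonic length.

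These counts were tested with edgeR 4.0.16 under R 4.3.3. filterByExpr kept 12187 genes, library sizes were scaled by TMM, and the quasi-likelihood test was fitted to all libraries with a mean per diet. Tests are two-sided with Benjamini-Hochberg adjustment over all tested genes and a threshold of 0.05 for pairs and 0.1 for the slope. SE is the absolute log2 fold change divided by the square root of F. Log2 CPM used a prior count of 2. A gene at 1 CPM receives 6.13 to 7.82 fragments a library. The fit was tested on simulated data.

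The 3 members and all gene lists were chosen with earlier results of these data known. Lists were counted by symbol, and some genes appear under several symbols. Names came from the study's tables, by identifier or by locus with an overlap of at least 0.8. Named were the members, 3 counted genes on each side, list members, the 5 genes most correlated with each member, further named ones up to 3, and GAPDH. Alternatives were RLE, upper-quartile and no scaling factors, other filters, limma-voom (limma 3.58.1), DESeq2 1.42.0, the likelihood ratio test, lane, replicate number, each pair alone, GAPDH and each library left out. P-values set a difference against the spread between these birds. The study kept birds in pens and sampled birds whose weight was near the mean of their diet. No pen is given for these libraries, so the spread between pens could not be estimated.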

Additional observations from a re-analysis of the deposited data

Results flagged for a closer look

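Replicate 3 at 1.0% Ca stood apart from the other 3 birds on that diet in 2 of 21 sets of values checked with Dixon's gap ratio at the 95% level, for which chance flags about 1 set in 20. TF relative to GAPDH was 415 fragments per 1000 GAPDH fragments in that bird and 285 in the next highest, while GAPDH itself was at its lowest of all libraries there, 486 CPM. ENSGALG00000026910, the second gene downstream of HPX, was at 24.9 CPM in that bird and 20.4 CPM in the next highest. HPX in that bird, 34.6 CPM against 19.2 CPM in the next, had a gap ratio of 0.823, just under the critical value. Groups of 3 birds were too small for this check.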

How the results depend on the processing

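Of the alternatives other than leaving out a library, 143 values kept their direction and their side of the threshold. Counts of genes called were 22, 19, 3 and 35 by the likelihood ratio test and 30, 42, 3 and 56 by DESeq2 for the pairs 0.8 to 1.0, 0.8 to 1.2 and 1.0 to 1.2% Ca and the slope, against 0 in each by the quasi-likelihood test. With only the 2 groups compared, 1 gene was called from 0.8 to 1.0% Ca. With lane as a covariate, HPX from 0.8 to 1.2% Ca moved to -0.44, HPX from 1.0 to 1.2% Ca turned to 0.33 and Ex-FABP from 0.8 to 1.2% Ca turned to 0.33. Relative to GAPDH, TF from 1.0 to 1.2% Ca was 0.72. TF and Ex-FABP had an r of 0.61 without the 2 libraries farthest from the median of TF, past the threshold. Without the 2 libraries farthest from their diet mean in TF, a setting chosen after seeing the data, TF and HPX turned to -0.14, and TF and Ex-FABP stayed short of the threshold. The likelihood ratio test of single members was also added after seeing the data. The cause of these shifts was not tested, except that the lane term leaves only the birds at 1.0% Ca to separate lane from diet.

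Leaving out each library gave 0 to 2 called genes from 0.8 to 1.0% Ca, 0 to 0 from 0.8 to 1.2% Ca, 0 to 1 from 1.0 to 1.2% Ca and 0 to 44 for the slope, the last without replicate 3 at 1.2% Ca. TF ranged from -0.57 to -0.39, 0.42 to 0.55 and 0.89 to 1.07 in the 3 pairs, HPX from -1.41 to -0.97, -1.32 to -1.04 and -0.21 to 0.25, and Ex-FABP from -1.79 to -1.18, -1.11 to 0.37 and 0.38 to 1.86. Over all alternatives but these, adjusted p for TF was 0.166 to 0.827 from 0.8 to 1.0% Ca and 0.133 to 0.788 from 0.8 to 1.2% Ca, for HPX from 1.0 to 1.2% Ca 0.523 to 1, and for Ex-FABP from 0.8 to 1.2% Ca 0.848 to 1.

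Birds of different diets share replicate numbers. Deviations of the 8 same-numbered pairs of libraries correlated at -0.41 to 0.32, with 2 above 0.1, and those of differently numbered pairs at -0.34 to 0.46. No sign that the numbers pair birds was seen, but these values cannot exclude it. With the replicate block, 0 genes were called in every pair and for the slope, and TF from 0.8 to 1.2% Ca was 0.40, HPX from 0.8 to 1.2% Ca -1.11 and Ex-FABP from 0.8 to 1.2% Ca -0.52.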
